A study of Mus musculus with 18 samples.

Results

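The nuclear-encoded subunits of the mitochondrial respiratory chain were followed in mouse NIH3T3 fibroblasts. The 92 genes were chosen by symbol from the 24062 genes counted: those beginning Nduf followed by a, b, c, s or v, those from Sdha to Sdhd, and those beginning Uqcr, Cox4i, Cox5, Cox6, Cox7, Cox8 or Atp5. No measured value entered the choice. The set held 36 subunits and 7 assembly factors of complex I, 4 subunits of complex II, 8 of complex III, 20 genes of complex IV including tissue forms, 15 subunits of complex V, and Atp5s and Atp5sl, which carry the prefix but encode no subunit of the enzyme. Of the 92 genes, 84 passed the filter on low counts. Cytochrome c1 (Cyc1) is a complex III subunit outside the symbol rule, and 0 of the 13 protein genes of mitochondrial DNA were among the genes counted, so complexes I, III, IV and V were seen in their nuclear part alone.

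Cells of the parental line (WT) or of 1 derived line that carries mouse TRIM21 fused to mCherry (genotype mCherry-mTRIM21, TRIM21 line below) received an electric pulse with PBS, with the protein control BSA (bovine serum albumin), or with antibody ab18447 (IgG), and RNA was taken 16 h later. TRIM21 is a ubiquitin ligase that binds antibodies in the cytosol. Each of the 6 combinations had 3 samples, and the titles carry the numbers 10, 11 and 14 once in every combination. The labels do not say what the number marks, nor whether the samples were separate cultures, so p-values measure the spread between these samples. All 6 groups were electroporated. Only 1 derived line was compared with its parent, so the fusion and any other difference between these lines cannot be told apart.

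The respiratory chain passes electrons from NADH (complex I) and succinate (complex II) through ubiquinone to complex III, then through cytochrome c to complex IV, which reduces oxygen. The protons pumped by complexes I, III and IV drive the rotary ATP synthase, complex V. Most subunits are encoded in the nucleus, made in the cytosol and imported, and several subunits of complex IV have separate heart, muscle, lung or testis forms beside a general one.

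The libraries held between 19509017 and 29766433 counts in genes. Counts of the Trim21 gene, which include reads of the fusion, were 19900 to 32225 in the TRIM21 line and 142 to 223 in WT, or 1038 ± 63.6 against 8.02 ± 1.13 CPM (counts per 1e6 counts in genes, SD, n = 9 samples each), so all libraries matched their labelled line. Of 9 fibroblast markers all were detected, but Lum was at 0.0495 to 3.69 CPM, whereas Vim was at 5213 CPM or more. The 11 markers of other cell types that were among the genes counted summed to 11.98 to 28.75 CPM, with Myod1 and Myog at 0 in every sample. Of the reads counted as in genes, outside genes or ambiguous, 13.1% to 18.8% fell outside genes. Of all entries in the count tables, 36.4% to 40.6% stood in the line for reads that were not uniquely aligned. Values are from bulk RNA, in which fewer cells of a type and less RNA per cell cannot be told apart.

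Promoter sequence was examined for motifs known from genes of the respiratory chain. RefSeq promoter windows of 300 bases (250 before and 50 from the annotated start, GRCm38.p6) were found for 76 of the 92 genes and for 27025 genes in all. They were searched on both strands for GCGCANGCG, the palindrome-like site of nuclear respiratory factor 1 (NRF1), for CCGGAAGT, the core of ETS factors such as GABPA, for AAGATGGC, a YY1 site, and for TCAAGGTCA, a site of ESRRA. GCGCANGCG can match both strands at positions 1 base apart, and such a pair counts as 2 matches. The NRF1 letters stood in 21 of the 76 windows (27.6%), against 6.47% of all windows. The YY1 letters stood in 10 (13.2%, against 2.88%), the ETS letters in 5 (6.58%, against 4%) and the ESRRA letters in 2 (2.63%, against 0.407%). In all, 33 of 76 windows held at least 1 of the 4 motifs. NRF1 letters stood in 6 of 14 windows of complex V, 2 of 3 of complex II, 2 of 5 of complex III, 8 of 32 of complex I and 1 of 14 of complex IV. The windows of all genes were not limited to the 12140 genes tested here, and no share was taken over tested genes alone. They were not matched to the set for GC content either. A match describes the letters and not the binding of a factor.

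The windows of 4 genes picked for their NRF1 letters are shown, 2 of them higher in the samples of number 10 (Atp5k, Ndufa8). Uqcr11, with NRF1 and ETS letters, was among the most variable genes, and Sdha, with 3 NRF1 matches, among the least variable. The windows of Cox7b and Sdhb, also higher in number 10, held none of the 4 motifs. The 4 windows shown are written 5′ to 3′ on the gene's strand, with the matched letters in capitals. The windows lie at chr5:108434350-108434649 (minus strand, Atp5k), chr2:36049289-36049588 (minus, Ndufa8), chr10:80406772-80407071 (minus, Uqcr11) and chr13:74350191-74350490 (minus, Sdha).
Atp5k: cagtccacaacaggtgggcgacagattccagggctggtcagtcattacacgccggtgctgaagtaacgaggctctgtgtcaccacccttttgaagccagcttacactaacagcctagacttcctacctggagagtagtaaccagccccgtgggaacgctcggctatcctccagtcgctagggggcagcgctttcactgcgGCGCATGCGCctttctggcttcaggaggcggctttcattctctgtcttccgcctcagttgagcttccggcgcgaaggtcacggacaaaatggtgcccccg
Ndufa8: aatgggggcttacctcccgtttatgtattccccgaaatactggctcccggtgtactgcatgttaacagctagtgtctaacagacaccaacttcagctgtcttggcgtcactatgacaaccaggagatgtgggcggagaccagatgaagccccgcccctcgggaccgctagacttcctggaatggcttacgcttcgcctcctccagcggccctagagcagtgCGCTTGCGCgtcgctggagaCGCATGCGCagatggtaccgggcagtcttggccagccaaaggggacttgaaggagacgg
Uqcr11: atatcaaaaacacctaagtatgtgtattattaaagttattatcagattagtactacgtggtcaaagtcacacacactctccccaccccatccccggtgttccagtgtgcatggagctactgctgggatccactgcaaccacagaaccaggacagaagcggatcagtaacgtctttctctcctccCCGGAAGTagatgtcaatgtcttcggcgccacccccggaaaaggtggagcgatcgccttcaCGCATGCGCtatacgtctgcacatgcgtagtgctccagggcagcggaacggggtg
Sdha: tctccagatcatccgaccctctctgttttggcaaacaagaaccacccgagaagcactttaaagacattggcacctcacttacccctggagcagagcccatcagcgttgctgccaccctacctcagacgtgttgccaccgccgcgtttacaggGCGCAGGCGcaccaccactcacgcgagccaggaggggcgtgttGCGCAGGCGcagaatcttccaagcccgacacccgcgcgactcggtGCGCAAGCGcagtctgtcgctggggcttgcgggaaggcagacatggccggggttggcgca

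Levels were compared between genes per kb of exon. Complex IV had the highest median, 119 CPM per kb over its 13 tested genes, followed by complex V with 81.2 (15 genes), complex III with 70.1 (8), complex II with 49.8 (4) and complex I with 42.3 (35 subunits). The 7 complex I assembly factors, which help build the enzyme and are not part of it, had a median of 6.03 CPM per kb and the highest was Ndufaf1 at 9.004 CPM per kb. The catalytic head of ATP synthase stood at the top: Atp5b (the catalytic beta subunit) had 396 ± 25.9 and Atp5a1 (alpha) 393 ± 33.9 CPM per kb (SD, n = 18). Complex IV followed with Cox6b1 at 293 ± 49.0 and Cox8a at 280 ± 29.6, both general forms of structural subunits. Complex III was led by the hinge protein Uqcrh at 208.5 ± 24.2, complex I by the accessory subunit Ndufb9 at 134.6 ± 13.3, and complex II by the membrane anchor Sdhd at 110.2 ± 10.5 CPM per kb. The ranges of Atp5b and Atp5a1 overlapped, and so did those of Cox6b1 and Cox8a.

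**Figure D1:**
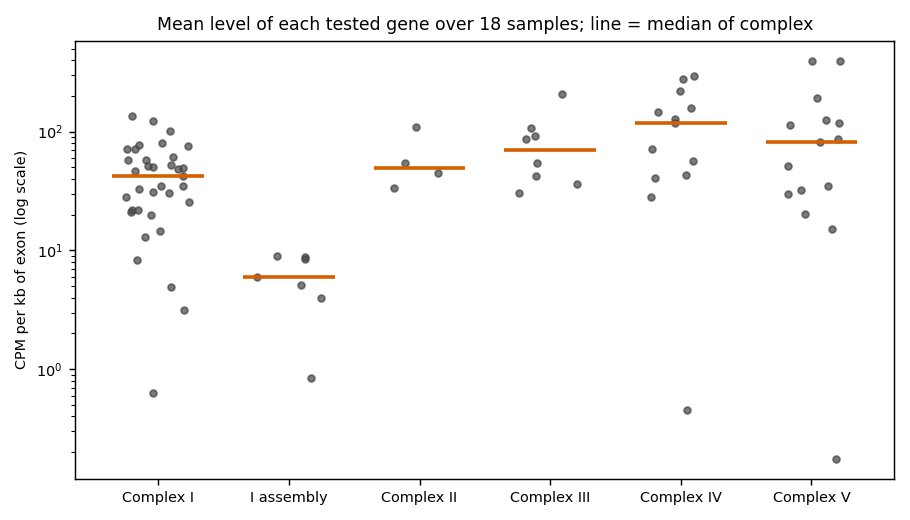
Mean level of each of the 82 tested subunits and assembly factors over 18 samples, in CPM per kb of exon on a log scale, by complex. Points are genes and lines are medians, which run from 6.03 for the complex I assembly factors to 119 for complex IV.

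The authors' tables hold a line of reads that were not uniquely aligned, so the share of each gene's sequence found elsewhere is given for 3 genes with low values. Atp5l (membrane subunit g of complex V) had 0.176 CPM per kb, and 84.8% of its 50-base stretches also occur in other transcripts, including those of 12 pseudogenes. Ndufab1, the mitochondrial acyl carrier protein that is also a complex I subunit, had 0.632 CPM per kb with 12.3% of its stretches shared. Ndufs5, an accessory subunit of complex I, was listed at 0 in all 18 samples, with 31.1% of its stretches shared. Other genes with much shared sequence had high counts, such as Atp5o, with 50.3% of its stretches shared and 81.2 CPM per kb. The part of shared sequence in the 3 low values was not tested. Across the 92 genes, 49 shared under 1% of their stretches and 34 shared at least 1 stretch with a pseudogene.

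The general forms of complex IV subunits made up nearly all of the CPM per kb of each pair. Cox4i1 gave 99.99%, Cox6a1 99.7%, Cox7a2 99.8% and Cox7b 99.96% of the CPM per kb summed over their pairs (means of 18 samples). The other 7 genes that did not pass the filter were such alternative forms: Cox4i2 and Cox6b2 had at most 1 count in a sample, Cox7b2 at most 3, Cox7a1 (heart and muscle) at most 7, Ndufa4l2 (induced by low oxygen) at most 8, and Cox8b and Cox8c 0 in every sample. The heart and muscle form Cox6a2 passed the filter at 0.0958 to 0.565 CPM. A count of 3 corresponded to 0.101 to 0.154 CPM, which is the upper limit that a count of 0 allows in these libraries, for counting error only. The 3 genes for the identical c subunit of the ATP synthase ring were all expressed. Atp5g3 gave 76.2% ± 2.70, Atp5g2 13.6% ± 2.44 and Atp5g1 10.3% ± 0.731 of their summed CPM per kb (SD, n = 18). The order of Atp5g2 and Atp5g1 depends on the exon length used, 1675 bases for Atp5g2 and 4912 for Atp5g1. In CPM without that division, Atp5g1 was higher, at 52.3 to 88.1 against 18.1 to 45.5 for Atp5g2.

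No respiratory chain gene passed the test between the lines. Averaged over treatments, 0 of 84 genes passed an adjusted p of 0.05 in edgeR's quasi-likelihood test, beside 6.18% of all 12140 tested genes, and limma-voom and DESeq2 also called 0. At an unadjusted p under 0.05, 0 genes of the set stood beside 21.4% of all genes. The median log2 fold change of the 84 genes (TRIM21 over WT) was 0.01 (from -0.02 without WT PBS 14 to 0.05 without TRIM21 BSA 14), with 46 genes higher and 38 lower and a range from -0.21 (Ndufv3, beside the NADH-binding subunit) to 0.19 (Cox6a2). The smallest p belonged to Atp5a1, the alpha subunit of the ATP synthase head. Its lowest, median and highest levels were 1107, 1309 and 1373 CPM in the TRIM21 line and 964, 1159 and 1287 CPM in WT, ranges that overlapped. Its log2 fold change was 0.13 (SE 0.0621, adjusted p = 0.245 by edgeR's quasi-likelihood test). Other genes at the ends of the range were Ndufb7 (0.19) and the assembly factor Ndufaf4 (0.18) on the higher side, and Atp5s (-0.17) and the F1 subunit Atp5e (-0.14) on the lower side, and none passed the test. The other pathway lists gave no call either: 0 of 13 citric acid cycle genes, 0 of 13 regulators and 0 of 9 genes of ubiquinone and cytochrome c passed. Of the 9 fibroblast markers 2 were called lower in the TRIM21 line (Lum -2.54, Thy1 -0.29) and 0 higher, 1 of 3 tested markers of other cell types was called higher (Tubb3 0.65), and their part in these values was not tested.

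Within single treatments the set leaned one way or the other, again without a call in the fit with a term for group alone. After PBS the median was 0.09 with 66 of 84 genes higher in the TRIM21 line, after BSA -0.16 with 78 lower, and after IgG 0.10 with 65 higher. The edgeR quasi-likelihood test, limma-voom and DESeq2 each called 0 genes of the set in all 3 comparisons, beside 1.71%, 0.848% and 0.774% of all genes by edgeR. At an unadjusted p under 0.05 there were 6, 7 and 3 genes of the set (7.14%, 8.33% and 3.57%), beside 19.8%, 10.3% and 7.79% of all genes. The smallest p after PBS was that of the complex I subunit Ndufa9 (log2 fold change 0.28, adjusted p = 0.169 by edgeR). Without the TRIM21 PBS sample of number 14, 1 gene was called after PBS, and other settings, given in the closing section, called 0 to 7. The median after PBS was 0.007 without WT PBS 14, and the 6 genes became 0 without TRIM21 PBS 11, 1 without WT PBS 14 and 10 without WT PBS 10. The median after BSA was -0.07 without TRIM21 BSA 14, -0.08 without WT BSA 10 and -0.02 with an offset for transcript length. The 7 genes after BSA became 0 without WT BSA 10, 1 without TRIM21 BSA 14, 4 without TRIM21 IgG 11, 11 without WT PBS 14 or WT BSA 11, 13 without WT BSA 14 and 22 without TRIM21 BSA 10. After IgG the median was 0.05 without TRIM21 IgG 10, and the 3 genes became 0 without WT IgG 11, 6 without WT IgG 10 and 7 without WT PBS 14. These comparisons do not share samples, and the BSA samples of WT include the sample of number 10, which had the highest median of the set among all 18.

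Treatment with antibody or BSA moved no gene of the set past the threshold in either line. By edgeR's quasi-likelihood test, limma-voom and DESeq2, 0 of 84 genes were called in any pair of treatments in either line, nor in the 3 differences of these pairs between lines (interactions). The background was 0% of all genes in each of these 9 comparisons by edgeR. In the TRIM21 line, IgG against PBS had a median log2 fold change of -0.10 with 62 genes lower, and 5 genes had an unadjusted p under 0.05 (5.95%, beside 5.61% of all genes), or 1 or 2 genes without TRIM21 PBS 11 or any 1 of the 3 TRIM21 IgG samples. The ends of that range were complex I assembly factors, Ndufaf4 at -0.49 (SE 0.186) and Ndufaf6 at -0.39 on the lower side, and Ndufaf3 at 0.55 on the higher side beside the scarce Cox6a2 at 0.57. Ndufaf3 was also low, at 0.836 CPM per kb the lowest of the assembly factors. Ndufaf4 read 28.2, 41.9 and 21.5 CPM after PBS and 23.2, 20.3 and 21.6 CPM after IgG in samples 10, 11 and 14, so 1 PBS sample was far above the other 5 samples and the groups overlapped. Its adjusted p was 0.724 by edgeR. In WT, IgG against PBS had a median of -0.10 with 66 genes lower and again 5 genes with an unadjusted p under 0.05 (beside 2.68% of all genes). These 5 became 0 without WT PBS 11 or WT IgG 14, 1 without WT IgG 11, 2 without WT PBS 10, 3 without TRIM21 PBS 14, TRIM21 BSA 11, TRIM21 IgG 14 or WT BSA 11, 8 without WT BSA 10 and 11 without WT PBS 14. The median was -0.03 without WT PBS 10 and -0.18 without WT PBS 14. The complex III subunits Uqcrq (-0.54) and Uqcr11 (-0.40) and the complex I subunit Ndufb4 (-0.47) were lowest.

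BSA against PBS leaned in opposite directions, with a median of -0.14 and 77 genes lower in the TRIM21 line and a median of 0.14 and 74 genes higher in WT. There were 2 genes with an unadjusted p under 0.05 in each line, beside 3.68% of all genes in the TRIM21 line and 2.49% in WT. The counts were 0 to 8 in the TRIM21 line, highest without TRIM21 BSA 10, and 0 to 9 in WT, highest without WT PBS 10, when 1 sample was left out. The medians were nearest to 0 at -0.06 without TRIM21 BSA 14 and at 0.05 without WT PBS 14. IgG against BSA in the TRIM21 line had a median of 0.03 and 0 such genes, beside 0.371% of all genes, and the median turned to -0.06 without TRIM21 BSA 14 and to -0.01 without TRIM21 IgG 10. For the interactions, 0 genes had an unadjusted p under 0.05 for IgG against PBS (beside 1.82% of all genes), 12 for IgG against BSA (14.3%, beside 3.97%) and 5 for BSA against PBS (5.95%, beside 6.51%), with medians of -0.02, 0.26 and -0.28. The count of 12 was 3 without WT BSA 10 or WT IgG 11, 4 to 7 without TRIM21 BSA 14, TRIM21 IgG 10, TRIM21 BSA 11 or TRIM21 IgG 11, and 19 to 27 without WT BSA 11, WT PBS 14, WT IgG 10 or TRIM21 BSA 10. The count of 5 was 1 without TRIM21 BSA 14 or WT BSA 10, 2 or 3 without WT PBS 14 or TRIM21 PBS 11, 9 without WT PBS 11, 17 without WT PBS 10 or WT BSA 14, and 23 without TRIM21 BSA 10. The count of 0 was 1 without TRIM21 IgG 10, 2 without WT PBS 10, 3 without TRIM21 PBS 14 and 4 without WT PBS 14, and the median of -0.02 lay between -0.07 (without WT PBS 10) and 0.06 (without WT PBS 14). No gene of the set passed the adjusted threshold in these comparisons, so a different response of the lines was not detected.

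IgG against BSA in WT was the treatment comparison in which most genes of the set had a small p. The median was -0.25 with 81 of 84 genes lower after IgG, and 21 genes (25%) had an unadjusted p under 0.05, beside 5.87% of all genes. The smallest p belonged to 2 membrane-arm accessory subunits of complex I. Ndufc2 read 48.2, 42.6 and 45.5 CPM after BSA and 36.4, 29.1 and 32.6 CPM after IgG in samples 10, 11 and 14, and every IgG sample was below every BSA sample. Ndufc1 read 29.9, 24.2 and 24.6 CPM after BSA and 20.7, 18.9 and 16.9 CPM after IgG, again without overlap. Ndufc2 did not pass the threshold at a log2 fold change of -0.47 (SE 0.107, adjusted p = 0.741 by edgeR), and Ndufc1 at -0.48 (SE 0.126) had the same adjusted p. The count of 21 was 4 without the WT BSA sample of number 10, 7 without the WT IgG sample of number 11 or of number 14, and 32, 33 and 32 without WT PBS 14, WT BSA 14 and WT IgG 10. An offset for transcript length gave a median of -0.07 and a count of 7. An offset for GC content gave a count of 25, and a fit on the compared groups alone gave 33. Without WT BSA 10 the median was -0.15.

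More genes of the set were called between title numbers than between lines or treatments. In a model with group and number as terms, 17 of 84 genes (20.2%) were higher in the 6 samples of number 10 than in the 6 of number 14 (edgeR's quasi-likelihood test, adjusted p under 0.05) and 0 were lower, beside 8.44% of all genes called and 4.92% called higher. The median log2 fold change of the 84 genes was 0.19, with 78 higher. At an unadjusted p under 0.05 there were 48 genes of the set (57.1%), beside 24.2% of all genes, and 23, 28 or 31 genes without WT BSA 10, WT BSA 14 or TRIM21 BSA 14. The 17 were spread over the complexes: 7 of 35 complex I subunits (median 0.18), 1 of 4 in complex II (0.14), 3 of 8 in complex III (0.29), 3 of 13 in complex IV (0.25) and 3 of 15 in complex V (0.20). None of the 7 assembly factors was called, and Atp5s and Atp5sl, which are not subunits, were at -0.15 and -0.13.

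Cox7b, the general form of a small complex IV subunit, had the smallest p. Its CPM in the samples of number 10 was 180, 189 and 166 in the TRIM21 line (PBS, BSA, IgG) and 201, 223 and 169 in WT. In the samples of number 14 it was 182, 102 and 128 in the TRIM21 line and 155, 137 and 101 in WT. Number 10 was higher in 5 of 6 groups, all but TRIM21 PBS, whose sample of number 14 overlapped the range of number 10. The log2 fold change was 0.50 (SE 0.0960, adjusted p = 0.0075 by edgeR's quasi-likelihood test). Cox7b passed the threshold in all 18 fits that left out 1 sample, with log2 fold changes from 0.42 to 0.60. Sdhb also passed in all 18. Calls were lost most often for Ndufa1 (in 13 of these fits), Cox4i1, Atp5g3 and Uqcrh (12 each) and Ndufa8 (11), with no change of direction.

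Sdhb carries the iron-sulfur clusters of complex II between the succinate site and ubiquinone. It read 111, 122 and 114 CPM in the TRIM21 line and 114, 127 and 112 CPM in WT for number 10 (PBS, BSA, IgG), a narrow range. For number 14 it read 117, 74.2 and 93.8 CPM in the TRIM21 line and 69.0, 97.6 and 77.4 CPM in WT, so 5 of 6 samples were below all samples of number 10. Its log2 fold change was 0.43 (SE 0.0878, adjusted p = 0.0116 by edgeR's quasi-likelihood test). The other subunits of complex II differed less: Sdhd 0.14, Sdhc 0.14 and the flavoprotein Sdha 0.07, none called.

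In complex I the called genes were the iron-sulfur core subunit Ndufs8 and the accessory subunits Ndufb10, Ndufb2, Ndufb6, Ndufs4, Ndufa8 and Ndufa1. Ndufs8 had a lowest, median and highest level of 65.8, 78.1 and 89.1 CPM in number 10 and of 43.8, 57.8 and 73.2 CPM in number 14, with a log2 fold change of 0.39 (SE 0.0978, adjusted p = 0.0237, edgeR). Ndufb10, in the membrane arm, read 159, 169 and 197 against 115, 133 and 171 CPM, with a log2 fold change of 0.35. The ranges of both genes overlapped. The NADH-binding Ndufv1 and the largest core subunit Ndufs1 were not called.

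In complex III the Rieske iron-sulfur protein Uqcrfs1, the hinge protein Uqcrh and the small subunit Uqcrb were called. Uqcrfs1 was higher in number 10 than in number 14 in all 6 groups, at 56.2 to 66.3 against 48.3 to 56.6 CPM (log2 fold change 0.22, SE 0.0588, adjusted p = 0.0312, edgeR). In complex IV, Cox4i1, the general form of the subunit that binds regulatory nucleotides, and Ndufa4, a complex IV subunit first assigned to complex I, were called beside Cox7b. Cox4i1 read a lowest, median and highest of 344, 390 and 491 CPM in number 10 against 224, 308 and 384 CPM in number 14 (log2 fold change 0.37). In complex V the called genes were membrane subunit e (Atp5k, 0.47), the stalk subunit Atp5o (0.27) and the main c-subunit gene Atp5g3 (0.24). Atp5k read 81.9, 88.9 and 120 CPM in number 10 against 55.4, 64.0 and 95.8 CPM in number 14, and its sample of number 14 in TRIM21 PBS lay inside the range of number 10.

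**Figure D2:**
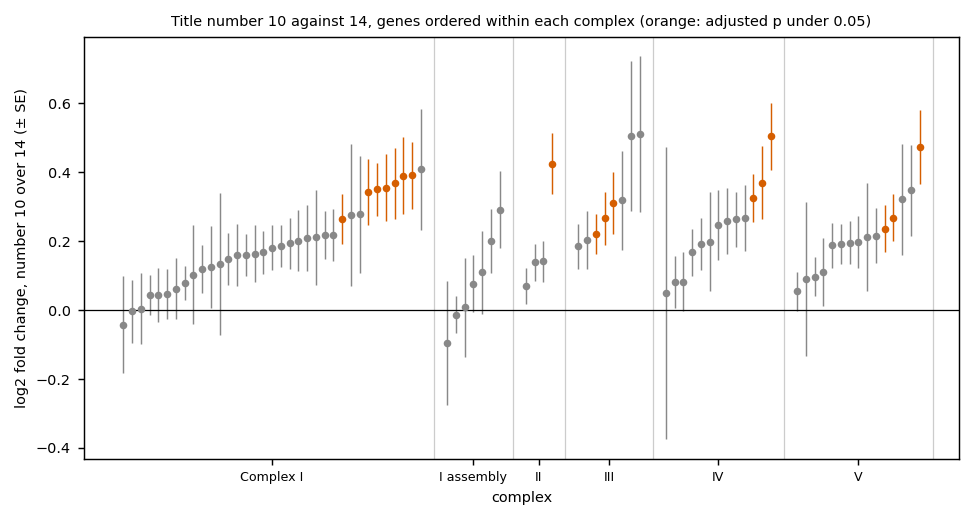
Log2 fold change with SE of each of the 82 tested subunits and assembly factors, title number 10 over 14, ordered within each complex. Orange marks the 17 genes with an adjusted p under 0.05, and most points in complexes I to V lie above 0, with the median of the set at 0.19.

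**Figure D3:**
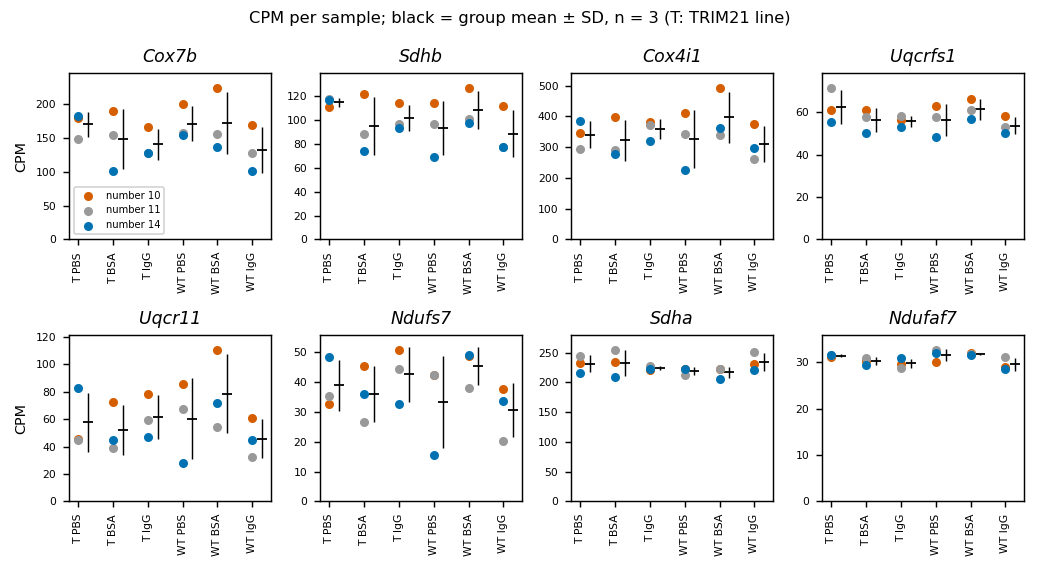
CPM of 8 genes in every sample, by line and treatment, coloured by title number, with the group mean and SD (n = 3). Cox7b, Sdhb and Cox4i1 are higher in number 10 than in number 14 in 5 of 6 groups and Uqcrfs1 in 6 of 6, Uqcr11 and Ndufs7 drop in WT PBS 14, and Sdha and Ndufaf7 stay level.

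The order of the numbers was then read group by group. Number 10 was above number 14 in at least 5 of the 6 groups for 59 of the 84 genes, beside 2878 of 12140 tested genes. It was above number 14 in all 6 groups for 10 of the 84 genes (11.9%), beside 9.01% of all tested genes, and these were Ndufs1, Ndufs4, Ndufaf4, Sdhd, Uqcrfs1, Uqcrh, Ndufa4, Atp5a1, Atp5f1 and Atp5o. Number 10 was above number 11 in all 6 groups for 17 genes (20.2%), beside 6.45% of all tested genes. The levels of all 6 samples of number 10 were above those of number 14 only for Ndufaf4 among the 84 genes (1.19%, beside 1.76% of all genes). Within WT alone the median was 0.28 and within the TRIM21 line 0.12, and 0 of 83 genes were called in either line alone. The count of 17 was 9 with an offset for transcript length, at a median of 0.11, and 29 with an offset for GC content. Leaving out 1 sample gave 2 genes without WT IgG 10, 3 without TRIM21 BSA 10 or TRIM21 BSA 14, 4 without WT BSA 10 or WT BSA 14, 5 without WT PBS 10, 7 without WT BSA 11 or WT IgG 14, 8 without TRIM21 IgG 10, 28 without TRIM21 PBS 14 and 32 without TRIM21 PBS 10. The direction of the median was the same in each of these fits.

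Fewer genes were called in the comparisons with number 11. Against number 11, number 10 had 2 of 84 genes called (2.38%), both higher, beside 3.8% of all genes called and 2.02% called higher, and a median of 0.12. These were Cox7b (0.38, adjusted p = 0.038) and Ndufa1 (0.42, adjusted p = 0.0453, edgeR). Number 11 against 14 had 1 gene called (1.19%), beside 5.23% of all genes called and 3.21% called higher, with a median of 0.08. It was the complex IV subunit Cox5a, at a lowest, median and highest of 131, 160 and 223 CPM in number 11 and 116, 124 and 149 CPM in number 14 (log2 fold change 0.36, adjusted p = 0.0222, edgeR). At an unadjusted p under 0.05, 25 genes of the set (29.8%) stood beside 19.1% of all genes for 10 against 11, and 17 (20.2%) beside 24% for 11 against 14. The first was 12 to 14 without WT BSA 11, WT BSA 10 or TRIM21 BSA 10, and the second was 4 to 11 without TRIM21 BSA 14, WT BSA 14, TRIM21 BSA 11, TRIM21 PBS 11, WT IgG 14 or WT BSA 11. The comparisons share samples with each other. Leaving out 1 sample moved the number of genes called between 0 and 11 for 10 against 11 and between 0 and 2 for 11 against 14. The former was 7 to 11 without TRIM21 PBS 10, TRIM21 PBS 14, WT PBS 11 or WT PBS 14, 1 without TRIM21 BSA 11, TRIM21 IgG 14 or WT IgG 14, and 0 without any other sample but TRIM21 BSA 14, where it was 2. Cox5a was not called without TRIM21 PBS 11, TRIM21 PBS 14, TRIM21 BSA 14, WT BSA 11 or WT BSA 14, and a second gene was called without WT PBS 11 or WT PBS 14.

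Genes of related pathways, from fixed lists, were read in the same comparison of numbers 10 and 14, in which 8.44% of all tested genes were called and 4.92% called higher. Of 13 citric acid cycle genes 3 were called, all higher (fumarase Fh1 0.32, Idh3a 0.32 and Mdh2 0.29), with a list median of 0.05. Of 9 genes for ubiquinone synthesis and cytochrome c 2 were called higher, Coq2 (0.33) and the somatic cytochrome c gene Cycs (0.30), with a median of 0.14. Of 13 regulators of mitochondrial genes 2 were called higher, the coactivator Ppargc1b (0.84) and the ETS factor Gabpa (0.36), while Nrf1 was at 0.11 (adjusted p = 0.33, edgeR). Assembly factors and further subunits stood in lists by complex, and a gene's list need not be its only complex. Called were 1 of 19 on the complex IV list (Coa3, 0.36) and 1 of 8 on the complex I list (Tmem70, 0.25). On the complex V list 1 of 5 was called (the small subunit Usmg5, 0.63), and on the complex III list 0 of 6, with Cyc1 at 0.18. In the same comparison 3 of 9 fibroblast markers were called lower in number 10 (Lum -1.04, Col1a2 -0.35, Pdgfrb -0.28) and 0 higher, and their summed level was 19800 to 25900 CPM in number 10 and 23060 to 28850 CPM in number 14. The part of these in the difference was not tested. NRF1 letters stood in 5 of the 15 called genes that had a window and in 15 of the 56 other tested genes.

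Genes of the same complex differed in how much they varied from sample to sample. Of the 77 genes with a mean of at least 10 CPM, the 8 with the largest SD of log2 CPM were the complex III small subunits Uqcrq, Uqcr11 and Uqcr10, the complex I subunits Ndufb7, Ndufs7, Ndufa11 and Ndufa2, and the c-subunit gene Atp5g2. They are named for this spread, so their values are a description. Uqcrq ranged 3.67-fold over the 18 samples (SD 0.545) and Uqcr11 3.89-fold (SD 0.521). The 8 with the smallest SD included Ndufaf7, Sdha, Ndufa10, Atp5b, Atp5j, Ndufs1 and Sdhc: Sdha ranged 1.23-fold (SD 0.0823), the catalytic Atp5b 1.26-fold and the assembly factor Ndufaf7 1.14-fold (SD 0.0583). The median SD was 0.19 over the 77 genes and 0.163 over the 9009 tested genes with that mean. The longest transcripts of the 8 most variable genes had a median of 835.5 bases and a GC content of 55.9%, against 2340.5 bases and 49.5% for the 8 least variable. Over the 77 genes the SD had a correlation of 0.296 with GC content and of -0.258 with log2 transcript length (Pearson, as a description, since the genes share their libraries).

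The 8 variable genes were high and low in the same samples. Their pairwise correlations over the 18 samples ran from 0.852 to 0.973, with a median of 0.937, beside a median of 0.559 over all pairs of the 77 genes. Uqcr11 read 45.3, 44.8 and 82.6 CPM in TRIM21 PBS (numbers 10, 11, 14), 72.8, 39.0 and 44.4 in TRIM21 BSA, and 78.5, 59.4 and 46.9 in TRIM21 IgG. In WT it read 85.7, 67.3 and 28.3 CPM after PBS, 110 (number 10), 54.3 and 71.5 after BSA, and 60.6, 32.0 and 44.4 after IgG. The range of each group overlapped that of every other group, and the samples within WT PBS and within WT BSA were furthest apart. Ndufs7, a core subunit beside the quinone site, was likewise lowest in WT PBS 14 (15.6 CPM) and next lowest in WT IgG 11 (20.3 CPM), against 26.6 to 50.7 CPM in the other 16 samples. WT PBS 14 was the lowest sample for 7 of the 8 genes and for 27 of the 77, and WT BSA 10 was the highest for 5 of the 8 and for 50 of the 77. One axis held 66.8% of the variance of the 77 genes, and the samples at its ends were WT PBS 14 and WT BSA 10.

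**Figure D4:**
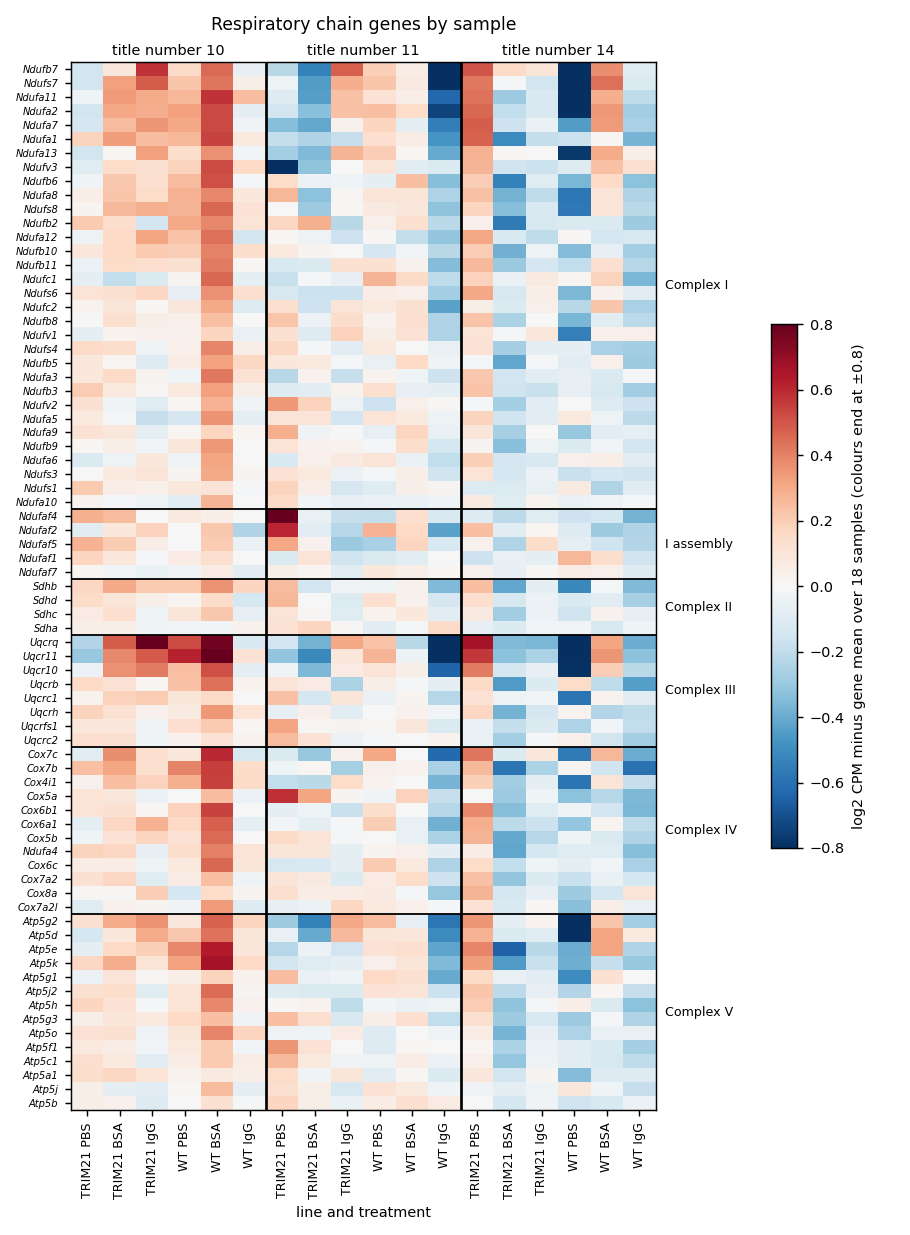
Log2 CPM of 75 of the 77 genes with a mean of at least 10 CPM, minus each gene's mean over 18 samples, by complex and, within it, by spread. Columns are samples ordered by title number. WT BSA 10 is high in nearly every row, and the most variable genes of complexes I, III and V are low in WT PBS 14 and WT IgG 11.

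Other short genes had similar medians in most samples. The median deviation of the 84 genes from their own means was highest in WT BSA 10 (0.36, with 81 of 84 genes above their mean) and lowest in WT IgG 14 (-0.21, with 7 above). For 522 other tested genes with transcripts of up to 1000 bases the medians were 0.32 and -0.13 in the same samples. These genes lay furthest from the set in TRIM21 PBS 11 (-0.04 against 0.08 for the set). Smaller gaps stood in WT IgG 14, in TRIM21 BSA 14 (-0.12 against -0.19) and in WT PBS 11 (0.14 against 0.07). Averaged by number, the set had 0.11 ± 0.129 in number 10, -0.01 ± 0.0959 in number 11 and -0.08 ± 0.143 in number 14 (SD, n = 6), and the other short genes had 0.09, -0.01 and -0.05. The set is short: its tested genes had a median longest transcript of 1231.5 bases, against 3400 for all tested genes, at a similar GC content (49.9% against 49.5%). Of the 17 genes called between numbers 10 and 14, 12 were in the shorter part of the set when it was split at its median length (42 genes, median 0.23), and 5 in the longer part (42 genes, median 0.16). For IgG against BSA in WT these parts had medians of -0.32 and -0.19.

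The samples differed in how far genes of high and low GC content lay apart. In WT PBS 14, the 13 tested genes of the set with a GC content of 55% or more had a median deviation of -0.59, against -0.07 for the 17 genes under 45%, and for other tested genes the values were -0.32 (2602 genes) and 0.17 (3185 genes). In WT IgG 11 the classes of the set were at -0.38 and -0.07 (other genes -0.20 and 0.08), and in TRIM21 BSA 11 at -0.35 and 0.03 (other genes -0.17 and 0.10). The order was the opposite in TRIM21 IgG 10 (0.30 and -0.03) and in WT BSA 14 (0.22 and -0.13). In WT BSA 10, both classes of the set were high, at 0.44 and 0.28. WT PBS 14 also had the largest share of reads outside genes (18.8%) and WT BSA 10 the smallest (13.1%), and the set took 0.916% and 1.24% of gene counts in these samples. By number, the median share outside genes was 15% in number 10, 15.95% in number 11 and 16.4% in number 14, and the part of this in the difference between numbers was not tested.

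**Figure D5:**
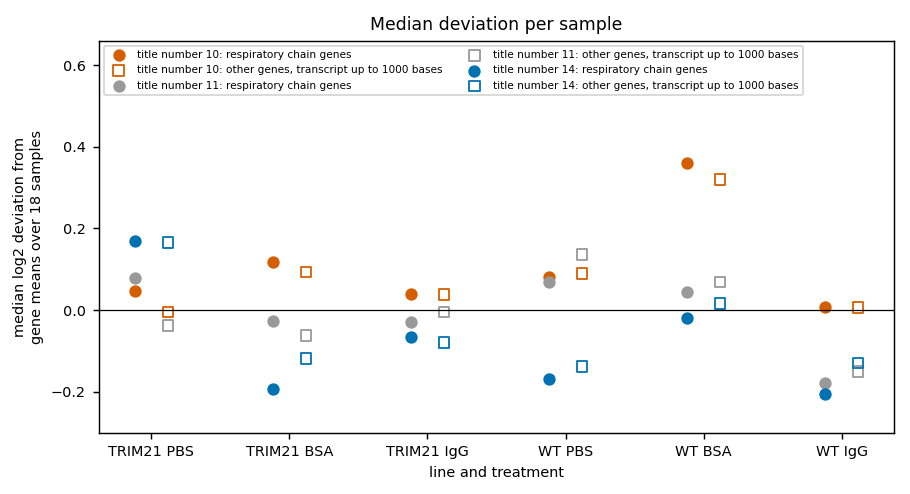
Median log2 deviation from gene means in each sample, for the 84 respiratory chain genes (filled circles) and for 522 other tested genes with transcripts of up to 1000 bases (open squares), coloured by title number. Both rise to a peak in WT BSA 10 (0.36 and 0.32). Both lie below 0 in WT IgG 11, WT IgG 14 and WT PBS 14, and in TRIM21 BSA 11, TRIM21 BSA 14, TRIM21 IgG 11 and TRIM21 IgG 14.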

How the data were processed

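RNA of 18 NIH3T3 samples was sequenced from strand-specific, polyA-enriched libraries. The authors deposited raw counts of reads per gene symbol, 1 table per sample. The submitters' processing notes name bcl2fastq 2.19.1.403, FastQC 0.11.5, STAR 2.5.1b, HTSeq 0.6.0, DESeq2 1.6.3 and mm10, with no role or strand setting, and the annotation is not given in the sources used here. Without a known strand setting, it is not known how reads in overlaps of genes on opposite strands were counted, or whether they were set aside as ambiguous. Lines for reads given to no gene were left out (13.1% to 18.8% of the reads in genes, outside genes or ambiguous fell outside genes).

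The tables were fitted in edgeR 4.0.16 (R 4.3.3). TMM factors ran from 0.977 to 1.03, and filterByExpr (minimum count 10, minimum total 15) kept 12140 of 24062 genes. The quasi-likelihood fit used all 18 samples, with a term for group and, for title numbers, terms for group and number. Benjamini-Hochberg adjustment ran over all tested genes with a threshold of 0.05, and the SE was derived from the F statistic. The fit was tested on simulated data. A gene of the set is counted but not reported by name here. CPM uses the TMM factors, and levels per kb divide by the exon union in the GENCODE annotation of GRCm38, the assembly of mm10. All 92 symbols matched it, and length and GC content are those of the longest transcript. Deviations are log2(CPM + 0.01) minus the gene's mean.

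The genes, the lists and the naming rule were chosen with earlier results of these data known. The rule names core subunits and tissue forms, up to 8 called genes by p in a comparison, the 3 highest and 3 lowest in the line, IgG against PBS and number comparisons, genes that did not pass the filter, and up to 4 genes of a pathway list by p. The most and least variable genes, the remaining called genes, and genes of the other treatment comparisons were named after their values were seen, and the 10 CPM minimum and GC classes were set then too. Alternatives were DESeq2 size factors, no filter, 10 counts in every sample, limma-voom (limma 3.58.1), DESeq2 1.42.0, lowess offsets (span 0.3) for GC content or transcript length, the number as a block, only the groups or 1 line, and each sample left out.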

Additional observations from a re-analysis of the deposited data

How the results depend on the processing

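For the 13 comparisons of line and treatment, the count of 0 genes called was also 0 with DESeq2 size factors, no filter, 10 counts in every sample, limma-voom, DESeq2, either offset alone, and only the groups compared. Samples with the same number did not all deviate together. The mean correlation of their deviations was 0.203, from -0.294 to 0.545, with 31 of 45 pairs over 0.1. The mean for other pairs (-0.101) follows largely from centring each gene within its group, so it is no independent comparison. Because the labels do not say what the number marks, the fits of line and treatment had no term for it. The spread between numbers therefore stayed in those tests. With the replicate block the counts stayed 0 in these 13 comparisons. The block with the GC offset gave 1 gene for the line average and 7 for the lines after PBS, and the block with the length offset gave 1 and 1. Leaving out 1 sample gave 0 to 1 after PBS. For number 10 against 14 (17 genes), the GC offset gave 29, the length offset 9, WT alone 0 and the TRIM21 line alone 0, and leaving out 1 sample gave 2 to 32. For 10 against 11 (2 genes), DESeq2 gave 8, the GC offset 9, each line alone 0, and leaving out 1 sample 0 to 11. For 11 against 14 (1 gene), DESeq2 gave 2, each line alone 0, and leaving out 1 sample 0 to 2. The fits in 1 line have fewer samples, and the cause of the other shifts was not tested. Counts of 8 or fewer in tissue forms carry no direction.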
